A study of Mus musculus with 40 samples.

Results

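Conventional CD4+ T cells (Tconv) taken from the wall of the gut were set against those taken from 4 solid organs. The comparison used 7 of the 40 libraries of the series. The gut wall group held the Tconv libraries of the intraepithelial lymphocytes (IEL) and lamina propria lymphocytes (LPL) of the small intestine and of the Peyer's patch. The solid organ group held those of kidney, liver, lung and pancreas. Members were chosen by the labelled source and cell type, not by any measured value. Earlier results of these data were known when they and the gene lists below were chosen. All cells came from perfused and digested tissue of mice labelled WT that carried a Foxp3-Thy1.1 reporter. Tconv were CD4+ cells without the reporter, and CD4+ cells with it were the regulatory T cells (Treg). For each library 2000 cells were sorted, and the RNA was read from its 3′ ends (QuantSeq). There was 1 Tconv library per source, so the sources served as the replicates of a group, 3 against 4. A difference between groups was judged against the spread between sources, which differ among themselves in tissue. The age of the mice is not given in the sources used here, and no label ties libraries to an animal or to a pool of animals. The Treg of the same 7 sources (3 libraries each, 9 gut wall and 12 solid organ libraries) served as the comparison, and the Tconv of blood, spleen and lymph node as a further level.

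T cells reach a tissue by matching chemokine receptors and integrins to ligands on its vessels and epithelium. In the small intestine the best known pairs are CCR9 with the chemokine CCL25, integrin alpha4beta7 with MAdCAM-1 on vessels, and integrin alphaEbeta7 (CD103) with E-cadherin on epithelial cells. In inflamed and solid tissues, integrins that contain the beta1 chain bind VCAM-1, collagens and laminins. Once inside, resident cells switch off the KLF2 and S1PR1 program that returns T cells to the blood. The Peyer's patch is a lymphoid organ built into the gut wall, in which follicular helper T cells support the germinal centres where B cells switch to IgA.

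Total counts of the 7 Tconv libraries ran from 12745701 to 21508771, and 14411 to 19167 genes had at least 1 count. Levels are given as CPM, counts scaled to a common library size, with TMM factors (trimmed mean of M values) over all 40 libraries. Where values stand in a row, the 3 of the gut wall are those of IEL, LPL and Peyer's patch, and the 4 of the organs those of kidney, liver, lung and pancreas, in that order. The labelled cell type held up on its markers: Cd3e, a chain of the T cell receptor complex, was at 799 to 1050.5 CPM in the gut wall and 976 to 1136 CPM in the organs. Cd4 was at 834 to 1249 and 566 to 1156 CPM. Foxp3 was at most 1.34 CPM except in lung Tconv, where it was 6.66 CPM. The lung and pancreas Tconv libraries carried Xist (163 and 106 CPM) and almost no Ddx3y, and the other 5 had the reverse. The sex of the animals was not balanced between the groups, and its part in the results was not tested. Over the 500 most variable genes of the 10 Tconv libraries, all 3 gut wall libraries had a gut wall library as nearest neighbour (Peyer's patch for IEL, and IEL for LPL and Peyer's patch). Of the organs, the nearest to lung was liver, but the nearest to kidney was LPL, to liver spleen and to pancreas Peyer's patch. On the first principal component of these genes (48.9% of their variance), Peyer's patch was at -6.58, within the organs' range of -26.7 to 15.5. IEL and LPL were at -44.3 and -48.4. Markers of other cell types were not taken out of the 500 genes, and their part in these distances was not tested.

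In edgeR's quasi-likelihood test with Benjamini-Hochberg adjustment over 14127 genes, 0 were called at 0.05 in either direction (0%). At an unadjusted p below 0.05 there were 971 genes (6.87%), 566 higher in the gut wall (4.01%) and 405 lower (2.87%). DESeq2's Wald test, run as an alternative, called 342 of 16238 genes higher (2.11%) and 98 lower (0.604%). Without the LPL library, 16 genes passed in edgeR, all of them higher in the gut wall and among them Ckmt1, Lypd8, Myo1a, Defa24 and Itln1, described below with the epithelial genes. In 738 genes (5.22% of those tested) all 3 gut wall libraries lay above all 4 organ libraries, and in 572 (4.05%) all 3 lay below. These shares are the background for the counts of gene groups below, in which a gene counts as above or below only when the 2 groups of libraries did not overlap. The median log2 fold change over all genes was 0.027. The filter on low counts kept 14 of 15 gut homing, 21 of 23 natural killer, 10 of 13 type 2 helper, 19 of 25 TGF-beta and retinoic acid and 9 of 11 aryl hydrocarbon receptor list members, and every member of the other program lists. A gene at or near 0 in one group was kept only through the group where it was high, so that its direction was fixed by the filter, and list counts that hold such genes are a description and no support for a direction. In bulk samples, fewer cells of a type and less RNA per cell cannot be told apart. The values below therefore describe levels and whether groups overlap. No gene named below passed edgeR's adjusted test in Tconv, and adjusted p values are those of edgeR unless DESeq2 is named.

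Of the 3 marker genes of the comparison, Itgae was higher and Itgb1 lower in every gut wall library than in every organ, and Ccr9 overlapped. Itgb1 (ENSMUSG00000025809.15, mm10 chromosome 8, 128685654 to 128733200, plus strand), the beta1 integrin chain, was at 130.2 CPM in IEL, 122 in LPL and 80.5 in Peyer's patch and at 2166 CPM in kidney, 1305 in liver, 1565 in lung and 741 in pancreas. All 3 gut wall levels lay below the lowest organ level, and below those of blood (449), spleen (732) and lymph node Tconv (156 CPM), while all 4 organ levels lay above those of blood, spleen and lymph node. The log2 fold change of gut wall over organ was -3.67 ± 0.43 (SE), the smallest p of all genes (adjusted p = 0.146 in edgeR, 6.57e-14 in DESeq2). Itgae (ENSMUSG00000005947.11, mm10 chromosome 11, 73090583 to 73147446, plus strand), the alphaE chain of CD103, was at 825 CPM in IEL, 241 in LPL and 89.4 in Peyer's patch and at 31.8 CPM in kidney, 6.57 in liver, 25.4 in lung and 3.07 in pancreas. The groups did not overlap, yet within the gut wall the levels ranged from the IEL, which sit against the epithelium, down to Peyer's patch, nearest to the organs. Its log2 fold change was 4.57 ± 1.01 (SE, adjusted p = 0.247 in edgeR, 2.80e-05 in DESeq2). Ccr9 (ENSMUSG00000029530.16, mm10 chromosome 9, 123678439 to 123784330, plus strand), the CCL25 receptor, was at 1041 CPM in IEL, 948 in LPL and 74.05 in Peyer's patch and at 52.3 CPM in kidney, 105 in liver, 32.7 in lung and 34.97 in pancreas. Here the groups overlapped: IEL and LPL stood far above every organ, while Peyer's patch lay below liver. The level was 10.4 CPM in blood, 15.2 in spleen and 8.603 in lymph node Tconv. The log2 fold change of Ccr9 was 3.65 ± 0.84 (SE, adjusted p = 0.267 in edgeR, 2.32e-04 in DESeq2).

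**Figure D1:**
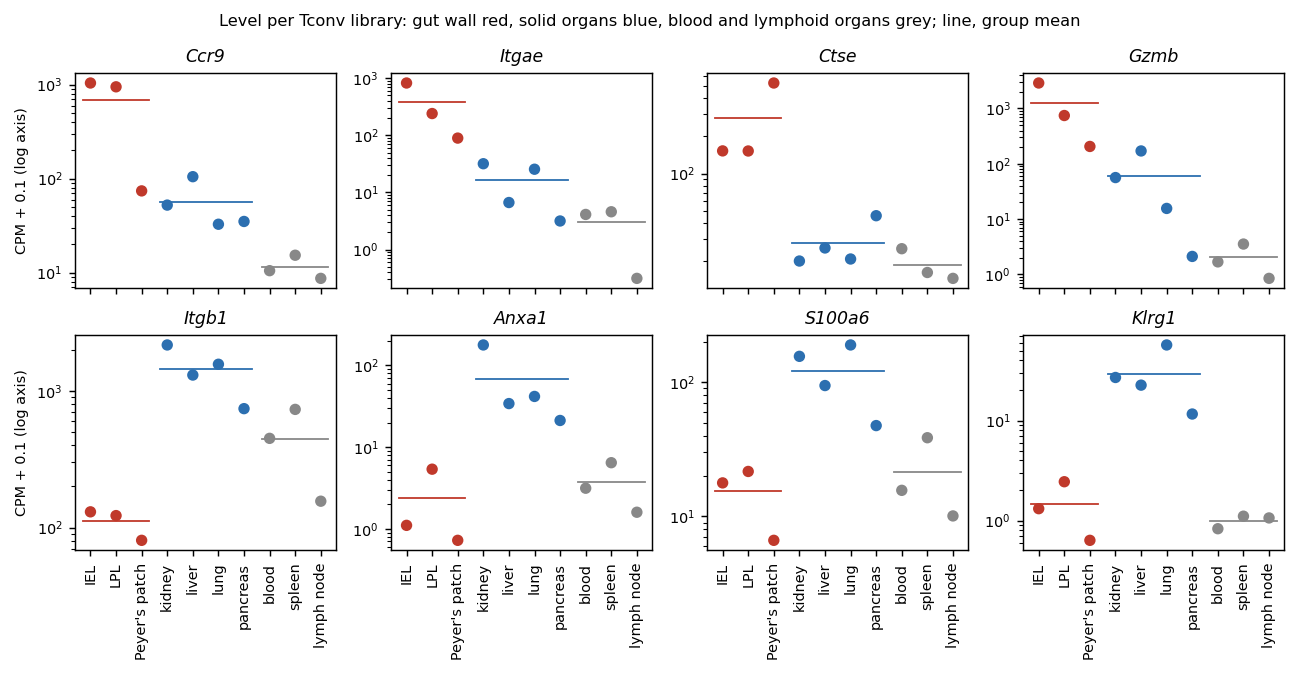
Level of 8 genes in each of the 10 Tconv libraries (CPM + 0.1, log axis; 1 point per library, horizontal lines are group means); gut wall libraries are red, solid organ libraries blue, and blood, spleen and lymph node grey. Itgae, Ctse and Gzmb were higher and Itgb1, Anxa1, S100a6 and Klrg1 lower in all 3 gut wall libraries than in all 4 organ libraries, whereas Ccr9 in Peyer's patch (74.05 CPM) lay below liver (105 CPM).

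The promoter windows of Ccr9, Itgb1 and Anxa1 are shown because these genes passed the test between gut wall and organs in Treg (below). Their group means in Tconv differed in the same direction, but the Tconv groups of Ccr9 overlapped. Each window holds the 300 bases from 250 before to 50 after the RefSeq start of the gene, on the plus strand for Ccr9 and Itgb1 and on the minus strand for Anxa1, build GRCm38.p6, written 5′ to 3′ with CG dinucleotides in capitals. The start of Ccr9 used by RefSeq lies inside the longer gene interval of the count table.
Ccr9 chr9:123766961-123767260: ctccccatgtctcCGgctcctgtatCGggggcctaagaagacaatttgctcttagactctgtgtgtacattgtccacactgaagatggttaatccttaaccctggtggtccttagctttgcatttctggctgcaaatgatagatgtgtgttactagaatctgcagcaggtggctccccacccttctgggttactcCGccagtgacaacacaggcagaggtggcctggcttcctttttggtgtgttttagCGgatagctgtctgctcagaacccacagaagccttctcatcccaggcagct
Itgb1 chr8:128685404-128685703: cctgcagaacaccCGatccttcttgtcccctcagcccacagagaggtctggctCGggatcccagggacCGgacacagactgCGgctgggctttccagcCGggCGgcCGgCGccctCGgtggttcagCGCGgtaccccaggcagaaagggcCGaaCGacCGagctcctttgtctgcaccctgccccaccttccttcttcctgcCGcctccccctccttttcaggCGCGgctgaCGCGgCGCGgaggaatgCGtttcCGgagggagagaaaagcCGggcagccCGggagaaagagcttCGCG
Anxa1 chr19:20390622-20390921: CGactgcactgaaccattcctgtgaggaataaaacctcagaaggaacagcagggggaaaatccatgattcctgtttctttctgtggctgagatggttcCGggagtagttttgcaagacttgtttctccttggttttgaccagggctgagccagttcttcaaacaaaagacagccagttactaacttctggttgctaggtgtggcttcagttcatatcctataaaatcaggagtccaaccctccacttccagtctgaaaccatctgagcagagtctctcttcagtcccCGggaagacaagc
The window of Itgb1 holds 27 CG dinucleotides and 67.3% G and C, that of Ccr9 holds 4 and 51.3%, and that of Anxa1 holds 3 and 47.3%. Over the 32851 promoter windows of the RefSeq table, of the same length, the median is 7 CG dinucleotides (quartiles 3 and 20), the median share of G and C is 52.7%, and 94.6% of windows hold at least 1 CG (the same letters on both strands). The counts describe these windows and say nothing of which factors act there. Itgae and Ctse are named only.

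Other homing molecules did not follow the markers as a block. Of the 14 members of a list of gut homing and retention genes that were tested, 1 (Itgae) lay above all organs and 4 lay below, with a median log2 fold change of 0.015. The 4 below were Itgb1, Itgb7, Itga4 and Gpr15. Itgb7, the beta7 chain of both gut integrins, was at 919, 936 and 803 CPM in the gut wall against 992 to 1644 CPM in the organs, with a log2 fold change of -0.49 ± 0.25 (SE, adjusted p = 0.806 in edgeR). Itga4, which pairs with either beta chain, was at 163, 168 and 199 CPM in the gut wall against 207 to 271 CPM in the organs. Gpr15, a receptor known for homing to the large intestine, was at 1.43, 1.07 and 0.534 CPM in the gut wall against 1.56 to 6.05 CPM in the organs. Cxcr6, the CXCL16 receptor of many tissue T cells, overlapped widely, at 663, 905 and 86.1 CPM in the gut wall and 1596, 1701, 934 and 102 CPM in the organs. Of 16 receptors known for homing to solid organs, 1 lay above and 1 below, with a median of -0.61. The one above was Ccr1, a receptor for CCL3 and CCL5, at 4.91, 27.8 and 3.56 CPM in the gut wall against 0 to 0.480 CPM in the organs. The one below was Ccr3, the eotaxin receptor, with 0 counts in the gut wall and 0.0520 to 3.21 CPM in the organs. Ccr1 and Ccr3 were each kept by the filter through the group where they were high, so neither count supports a direction. Ccr8, a receptor of tissue Treg and type 2 helper cells, was at 6.54, 35.2 and 14.95 CPM in the gut wall and 235, 12.7, 75.6 and 130.1 CPM in the organs, and overlapped because liver was low. Ccr2, which guides cells to inflamed tissue, was at 60.4, 107 and 10.1 CPM in the gut wall and 210.04, 392.3, 224 and 56.8 CPM in the organs, with only the pancreas among the organs inside the gut wall range.

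Beside Itgb1, the genes Anxa1, S100a6, S100a4 and Crip1 were lower in all 3 gut wall libraries than in every organ. Anxa1 (ENSMUSG00000024659.15, mm10 chromosome 19, 20373428 to 20390944, minus strand), the phospholipid-binding annexin A1, was at 1.003 CPM in IEL, 5.27 in LPL and 0.623 in Peyer's patch and at 178 CPM in kidney, 34.05 in liver, 41.7 in lung and 21.1 in pancreas. The groups did not overlap, and kidney stood above the other organs. Myeloid markers were also highest in kidney, at 0.0651% of counts against 0.0150% to 0.0521% in the other 6. The macrophage genes Csf1r, Cd14 and C1qb were at 64.997, 73.1 and 65.05 CPM there and at most 7.39 CPM in the others. Their part in the Anxa1 levels of kidney and of the other libraries was not tested. The log2 fold change was -4.85 ± 1.13 (SE, adjusted p = 0.268 in edgeR, 8.18e-06 in DESeq2). S100a6, a calcium-binding protein, was at 17.7, 21.5 and 6.54 CPM in the gut wall and 156, 94.2, 189 and 47.4 CPM in the organs (log2 fold change -2.96 ± 0.60, SE, adjusted p = 0.235). Its relative S100a4 was at 0.264, 1.51 and 0.0890 CPM in the gut wall against 2.91 to 16.02 CPM in the organs. Crip1, a small LIM-domain protein, was at 146, 94.6 and 119 CPM in the gut wall against 215 to 458 CPM in the organs. Of the organs, pancreas was lowest for Anxa1, S100a6 and Crip1 and liver for S100a4, and each still lay above all 3 gut wall levels. S100a6 and Crip1 are among the 12 genes with the smallest p that were lower in the gut wall, and the others of the 12 follow.

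Klrg1, an inhibitory receptor for cadherins, was at 1.21 CPM in IEL, 2.34 in LPL and 0.534 in Peyer's patch and at 26.8 CPM in kidney, 22.5 in liver, 56.8 in lung and 11.5 in pancreas. The groups did not overlap, and blood, spleen and lymph node Tconv, with 0.728 CPM in blood, 1.01 in spleen and 0.962 in lymph node, fell inside the range of the gut wall. The log2 fold change was -4.39 ± 0.76 (SE, adjusted p = 0.225 in edgeR, 6.76e-08 in DESeq2). Ly6a (Sca-1, a surface protein induced by interferon) was at 139.6, 137 and 154 CPM in the gut wall against 294 to 595 CPM in the organs. H2-Q7, which encodes the class Ib molecule Qa-2 and has near-identical copies between which reads may be split, was at 319.95, 391.99 and 291 CPM in the gut wall against 675 to 1093 CPM in the organs. For both, the lowest organ lay well above the highest gut wall level, with log2 fold changes of -1.61 ± 0.28 and -1.37 ± 0.26 (SE, adjusted p = 0.225 for each in edgeR). Sema4a, a semaphorin with a role in T cell priming, was at 28.6, 15.4 and 75.4 CPM in the gut wall against 152 to 450.4 CPM in the organs. Ifitm10, of the interferon-induced transmembrane family, was at 3.64, 2.197 and 3.96 CPM in the gut wall against 13.1 to 40.7 CPM in the organs. Nck2, an adaptor below the T cell receptor, was at 29.1, 24.8 and 47.3 CPM in the gut wall against 71.8 to 107 CPM in the organs. Sfxn2, a mitochondrial carrier, was at 4.54, 3.56 and 4.32 CPM in the gut wall against 12.7 to 23.7 CPM in the organs. The remaining members of the 12 were Rpl34, described with the ribosomal proteins, and Kcnj8, the pore of an ATP-sensitive potassium channel, which had 0 counts in the gut wall and 0.480 to 14.6 CPM in the organs.

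Among the 12 genes higher in the gut wall with the smallest p, 4 were above 1 CPM in every organ as well. Ctse (ENSMUSG00000004552.16, mm10 chromosome 1, 131638306 to 131675505, plus strand), the protease cathepsin E, was at 151 CPM in IEL, 151 in LPL and 528 in Peyer's patch and at 19.9 CPM in kidney, 25.3 in liver, 20.6 in lung and 45.9 in pancreas. Peyer's patch was highest, and pancreas was the highest of the organs (log2 fold change 3.33 ± 0.51, SE, adjusted p = 0.188 in edgeR, 3.91e-07 in DESeq2). Cdk5r1, the activating partner of the kinase CDK5, was at 22.3 CPM in IEL, 29.4 in LPL and 24.5 in Peyer's patch and at 1.06 CPM in kidney, 1.34 in liver, 3.17 in lung and 1.77 in pancreas. The 3 gut wall levels lay close together and lung was the highest of the organs, with a log2 fold change of 3.81 ± 0.48 (SE, adjusted p = 0.146 in edgeR, 4.71e-12 in DESeq2). Bcl3, a nuclear protein that modulates NF-kappaB, was at 120.4, 176 and 138 CPM in the gut wall against 49.9 to 62.9 CPM in the organs, a difference of 1.42 ± 0.21 (SE) on the log2 scale. Cdh1, E-cadherin, was at 169, 59.1 and 25.4 CPM in the gut wall and 8.86, 7.47, 5.77 and 8.06 CPM in the organs; it is the ligand of CD103 and is made by epithelial cells as well as by some T cells.

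The other 8 of the 12 are known from intestinal epithelium and followed the IEL library. They were Ckmt1 (mitochondrial creatine kinase), Lypd8 (a secreted antibacterial protein), Myo1a (brush border myosin), Nlrp6 (an inflammasome sensor), Aoc1 (diamine oxidase), Defa24 (a Paneth cell defensin with near-identical copies), Cps1 (a urea cycle enzyme) and Itln1 (intelectin). Defa24 was at 226, 1.32 and 71.02 CPM in the gut wall against 0 to 0.0503 CPM in the organs. Cps1 was at 314, 13.9 and 19.9 CPM in the gut wall against 0 to 0.299 CPM in the organs. In each of the 8 the IEL level was the highest of the 3 and the organs had at most 0.299 CPM, so no fold change is given. Markers of intestinal epithelium, a list that holds other genes, moved with them. Of its 27 members 19 passed the filter, and those at or near 0 in the organs passed through the gut wall libraries, so no count is given. The summed share of the list in all counts was 0.277% in IEL, 0.0119% in LPL and 0.0476% in Peyer's patch, against 0.00106% to 0.00310% in the organs. The exact two-sided permutation test of this share gave p = 0.0571, the smallest that 3 against 4 libraries allow. The keratin Krt8 was at 269 CPM in IEL, 14.1 in LPL and 25.5 in Peyer's patch. The adhesion molecule Epcam was at 155, 19.1 and 21.6 CPM. The part of epithelial RNA in the levels of these 8 genes and of Cdh1 was not tested.

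Markers of some other cell types stood out in single libraries, and the shares of some kept the groups apart. Pancreatic acinar markers made up 1.11% of counts in pancreas Tconv and at most 0.0350% elsewhere, with 0 of 19 above and 1 below. Plasma cell markers made up 1.53% in LPL and 0.0285% to 0.0922% in the other 6, with 2 of 10 above. The immunoglobulin chain Igha was at 6702 CPM in LPL and at 169 CPM in kidney, the next highest. Erythroid and platelet markers were highest in lung (0.0121%) and liver (0.00641%), mostly from haemoglobin genes with near-identical copies. Their share was 2.48e-05% to 4.17e-05% in the gut wall and 9.61e-05% to 0.0121% in the organs, so the groups lay apart. The exact permutation test gave p = 0.0571, the smallest possible, for this list and for mast cell and basophil markers. The 3 members tested all lay below and were kept by the filter through the organs, so that count supports no direction. Lung epithelial markers took 0.0984% in lung and 0.00523% to 0.0283% elsewhere, with the surfactant gene Sftpc at 337 CPM in lung and at most 0.0480 CPM elsewhere. Kidney tubule markers took 0.0135% in kidney and at most 0.00323% elsewhere. Mast cell and basophil markers made up 0.00526% to 0.0134% in the gut wall and 4.76e-05% to 0.00176% in the organs. Of this list, 8 of the 10 were at 0 in all 7 libraries and the count came from Kit, the stem cell factor receptor, at 46.3, 130.01 and 46.99 CPM in the gut wall against 0 to 16.5 CPM in the organs. Among markers of CD8+ and gamma delta T cells 1 of 8 lay above, and the list's share was 0.0804% in IEL and 0.00836% to 0.0433% in the organs. Of the others, 2 of 16 B cell, 1 of 6 stromal and 1 of 8 innate lymphoid markers lay above and 1 of 16 myeloid markers lay below. In 0 of the hepatocyte, kidney tubule, lung epithelial and endothelial markers did the groups lie apart.

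**Figure D2:**
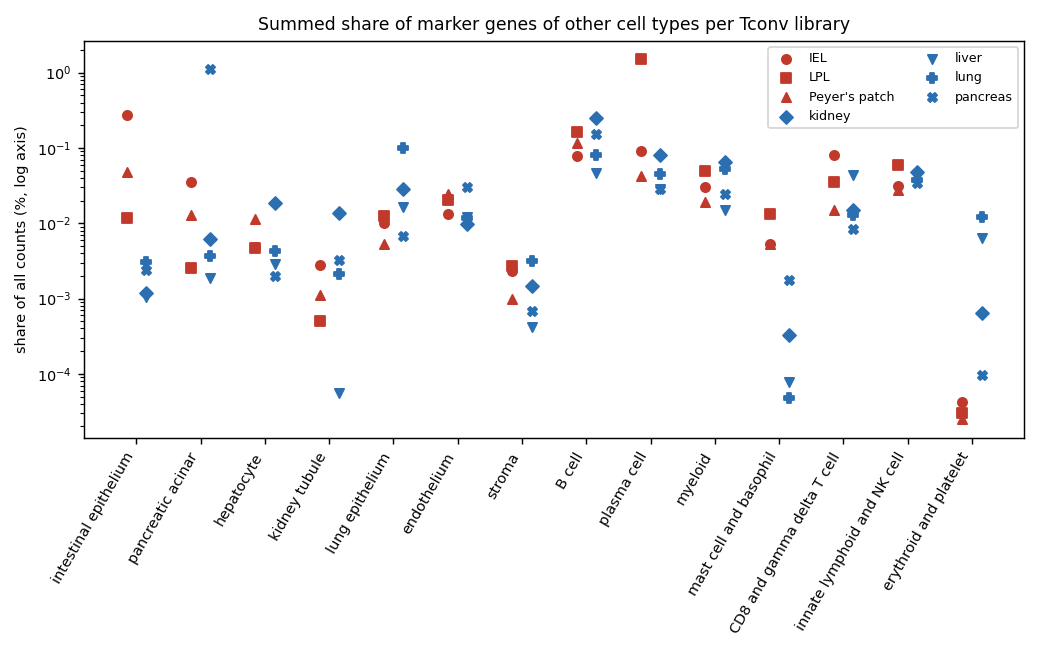
Summed share of counts (percent, log axis) taken by marker genes of 14 other cell types in each of the 7 Tconv libraries, gut wall in red and organs in blue, with 1 symbol per source. Intestinal epithelium stood highest in IEL (0.277%), acinar markers in pancreas (1.11%) and plasma cell markers in LPL (1.53%).

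Granzymes and the CD8alpha chain graded from the IEL downwards. Of 27 tested members of an intraepithelial T cell list, 5 lay above all organs and 0 below (median log2 fold change 0.80). The 5 were Itgae, Gzma, Gzmb, Cd8a and Kit. Cd8a and Kit were at or near 0 in some organs and were kept by the filter through the gut wall libraries, so the count supports no direction. Gzmb, the serine protease granzyme B, was at 2889.8 CPM in IEL, 746 in LPL and 206 in Peyer's patch and at 56.3 CPM in kidney, 171 in liver, 15.5 in lung and 2.01 in pancreas. IEL stood highest, and liver, the highest organ, came close to Peyer's patch (log2 fold change 4.42 ± 1.41, SE, adjusted p = 0.513 in edgeR, 0.00512 in DESeq2). Gzma, granzyme A, was at 1987 CPM in IEL, 310.4 in LPL and 187 in Peyer's patch and at 13.9 CPM in kidney, 17.8 in liver, 141 in lung and 1.103 in pancreas, again with IEL first and with lung just below Peyer's patch. Cd8a, which intestinal CD4+ cells can carry as a CD8alphaalpha homodimer, was at 163, 44.8 and 21.8 CPM in the gut wall and 0.0503, 0.0747, 3.12 and 1.39 CPM in the organs. Cd8b1, the partner chain of the CD8 heterodimer, overlapped, at 84.1, 126 and 52.1 CPM in the gut wall against 10.2 to 57.9 CPM in the organs. The sort took CD4+ cells; markers of CD8+ and gamma delta T cells were also highest in IEL, as given above, and their part in these levels was not tested. Gpr55, a lysolipid receptor of intraepithelial cells, was high in IEL and LPL (126 and 128 CPM) and in Peyer's patch within the range of the organs (20.2 against 1.35 to 32.9 CPM). Without Peyer's patch, a choice made after seeing the data, 11 of the 27 lay above and 1 below, where 11.1% and 10.2% of all genes did. Of 20 cytotoxic granule genes only the 2 granzymes lay above; Nkg7, a granule membrane protein, overlapped at 675, 418 and 66.7 CPM in the gut wall against 57.7 to 898 CPM in the organs. Prf1, perforin, overlapped at 72.4, 41.6 and 48.9 CPM in the gut wall against 30.1 to 68.4 CPM in the organs.

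Natural killer type receptors did not follow the granzymes. Of 21 tested, 0 lay above and 3 below, Klrg1, Klra1 and Klra9. Klra1 and Klra9 were at or near 0 in the gut wall and were kept by the filter through the organs. Neither the count below nor a median therefore supports a direction. Klrc1, the NKG2A chain, was at 1.06, 5.81 and 0.311 CPM in the gut wall and 104, 124, 32.5 and 1.92 CPM in the organs. Here kidney, liver and lung were high, and pancreas fell inside the gut wall range. Klrk1, the activating receptor NKG2D, was at 1.48, 11.9 and 1.07 CPM in the gut wall and 127, 94.98, 12.3 and 3.69 CPM in the organs, with kidney and liver again first. Klra1 and Klra9, of the Ly49 family with near-identical copies, had at most 0.537 CPM in the gut wall and 1.34 to 22.7 and 0.0959 to 2.97 CPM in the organs. Cd160, a receptor shared by killer and intraepithelial cells, did not separate, at 282, 144 and 52.8 CPM in the gut wall and 36.8, 234, 11.9 and 7.96 CPM in the organs.

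The summed level of type 17 helper genes was highest in LPL (2211 CPM, against at most 866 CPM in the other Tconv libraries). Of 15 tested, 5 lay above all organs and 0 below, with a median log2 fold change of 2.55: Il17a, Il22, Il1r1, Il21 and Maf. Il17a and Il22 were at or near 0 in most organs and were kept by the filter through the gut wall libraries. Neither the count nor the median therefore supports a direction, and Il21 is also on the follicular helper list. Il21, at 60.2 CPM in LPL, was lower there than in IEL and Peyer's patch. Il17a, the signature cytokine, was at 13.9 CPM in IEL, 166 in LPL and 4.72 in Peyer's patch and at 0.856 CPM in kidney, 0.448 in liver, 0 in lung and 1.25 in pancreas. LPL was far above the rest and the organs were near 0 (adjusted p = 0.247 in edgeR, 7.12e-06 in DESeq2). Il22, which acts on epithelium, was at 5.96, 151 and 10.5 CPM in the gut wall and 0.403, 0.0747, 0 and 5.32 CPM in the organs, so that IEL was barely above pancreas. Il1r1, the IL-1 receptor, was at 16.8, 69.6 and 44.7 CPM in the gut wall and 3.68, 0.747, 3.38 and 8.25 CPM in the organs (log2 fold change 3.48 ± 0.74, SE, adjusted p = 0.235 in edgeR, 2.32e-04 in DESeq2). Without Peyer's patch 8 of the 15 lay above, where 11.1% of all genes did. Markers of innate lymphoid cells, some of which make the same cytokines, took 0.0598% of counts in LPL, 0.0311% in IEL, 0.0275% in Peyer's patch and 0.0340% to 0.0477% in the organs. LPL was also the library with the most plasma cell RNA. The part of either in the type 17 levels was not tested.

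Targets and partners of the aryl hydrocarbon receptor, a sensor of dietary and microbial ligands, had their highest summed levels in LPL and IEL. These were 1465 and 1275 CPM, against at most 466 CPM in the other Tconv libraries. Il22 is also on this list and was lowest of the gut wall in IEL (5.96 CPM). Of 9 tested, 4 lay above (Ahrr, Cyp1b1, Nqo1 and Il22) and 1 (Gpr15) below. Cyp1b1, Nqo1 and Ahrr were at or near 0 in most organs and were kept by the filter through the gut wall libraries, so neither the count nor a median supports a direction. Ahrr, the receptor's own repressor and target, was at 89.4, 42.1 and 2.803 CPM in the gut wall and 0.0503, 0, 0 and 2.45 CPM in the organs, and Peyer's patch was barely above pancreas. Cyp1b1, a target enzyme, was at 7.39 CPM in IEL, 10.7 in LPL and 1.11 in Peyer's patch, with 0 counts in the 4 organs. Ahr itself was at 337, 396 and 28.5 CPM in the gut wall and 76.2, 41.2, 46.5 and 45.1 CPM in the organs: IEL and LPL stood above and Peyer's patch below every organ. Hic1, a transcriptional repressor induced by retinoic acid, overlapped as well, at 505, 469 and 62.7 CPM in the gut wall and 149, 117, 28.8 and 7.82 CPM in the organs. A list of genes of the TGF-beta and retinoic acid response had 1 of 19 above (Itgae) and 1 below (Rxra, a partner of the retinoic acid receptors).

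The summed level of follicular helper genes was highest in Peyer's patch (5049 CPM, against at most 3234 CPM in the other Tconv libraries). In IEL and LPL too, 5 of them were above all organs. Of 23 tested, 5 lay above and 0 below, with a median of 0.77: Bcl6, Cxcr5, Tox2, Il21 and Rnf43. Of the 5, Cxcr5 and Tox2 were highest in Peyer's patch, Bcl6 in LPL, and Il21 and Rnf43 in IEL. Cxcr5, the receptor that leads cells into B cell follicles, was at 85.5 CPM in IEL, 37.6 in LPL and 408 in Peyer's patch and at 10.1 CPM in kidney, 6.795 in liver, 19.1 in lung and 34.6 in pancreas. Peyer's patch was far above the rest, while LPL was just above pancreas (log2 fold change 3.34 ± 0.85, SE, adjusted p = 0.317 in edgeR, 0.00193 in DESeq2). Tox2, a factor that acts with BCL6, was at 177, 207 and 439.6 CPM in the gut wall and 32.7, 10.2, 33.4 and 60.6 CPM in the organs, and had the smallest p of the list (adjusted p = 0.225 in edgeR, 2.80e-05 in DESeq2). Bcl6, the lineage factor, was at 123, 222 and 204 CPM in the gut wall and 85.6, 21.4, 26.8 and 78.8 CPM in the organs. Il21, the main cytokine of follicular help, was at 117, 60.2 and 111 CPM in the gut wall and 16.7, 16.4, 1.196 and 33.4 CPM in the organs. Rnf43, a ubiquitin ligase that dampens Wnt signalling, was at 76.6, 57.4 and 66.1 CPM in the gut wall and 52.3, 29.2, 12.5 and 47.9 CPM in the organs, with kidney just below LPL. Pdcd1, the receptor PD-1, overlapped because kidney was high, at 264, 223 and 635 CPM in the gut wall and 336, 49.2, 52.01 and 126 CPM in the organs. Without IEL, a choice also made after seeing the data, the same 5 counted as 5 of 23 above, where 7.03% of all genes did and 5.29% lay below. B cell markers took 0.0774% to 0.161% of counts in the gut wall and 0.0467% to 0.249% in the organs. Of 24 checkpoint and costimulation genes 1 lay above, the inhibitory receptor Tigit, at 85.1, 102 and 87.8 CPM in the gut wall and 48.4, 7.09, 9.52 and 15.1 CPM in the organs.

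**Figure D3:**
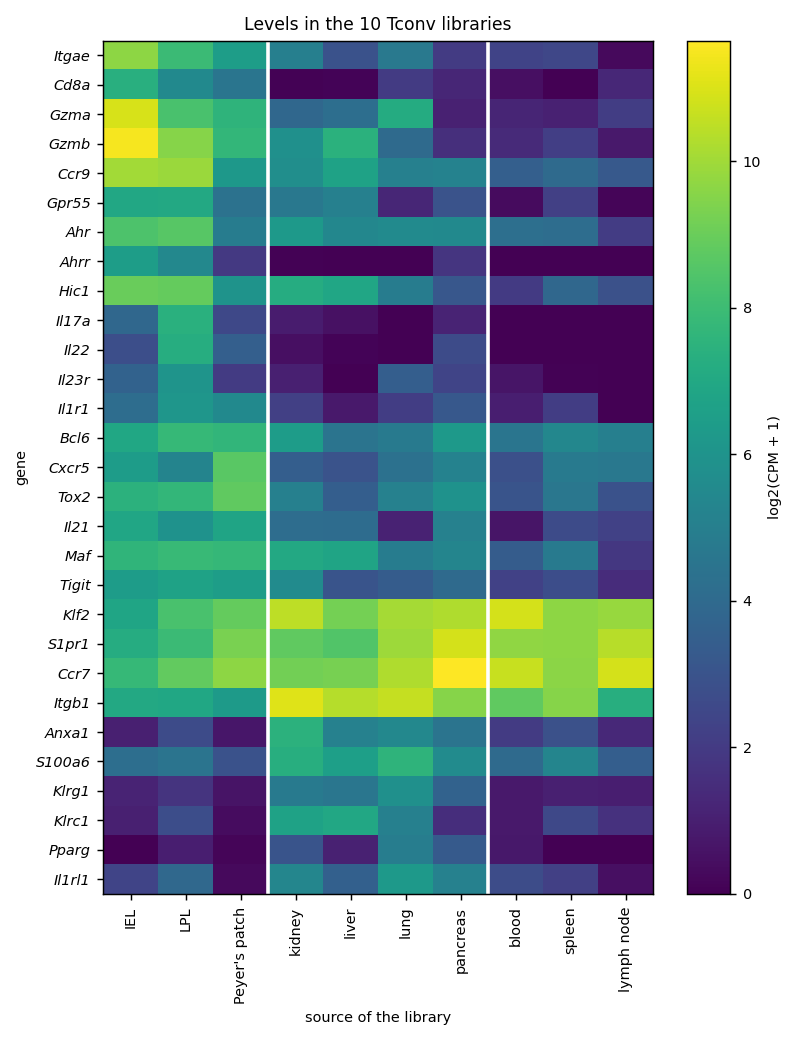
Levels of genes chosen from the lists after their values were seen, in the 10 Tconv libraries, as log2(CPM + 1); white lines part gut wall, solid organs, and blood with spleen and lymph node. Granzymes peaked in IEL, Il17a and Il22 in LPL and Cxcr5 in Peyer's patch, while Itgb1, Anxa1, S100a6 and Klrg1 were high in all 4 organs.

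The summed level of recirculation and lymph node entry genes was 4557 CPM in IEL, 5823 in LPL and 11195 in Peyer's patch. In the organs it was 7256 to 18398 CPM. Of 22 of these genes, 0 lay above and 2 below, Klf2 and Ms4a6b, with a median of -0.67. Without Peyer's patch, a choice made after seeing the data, 12 of 22 lay below, where 10.2% of all genes did. Klf2, the factor that drives S1pr1, was at 114 CPM in IEL, 315 in LPL and 481 in Peyer's patch and at 1422 CPM in kidney, 599 in liver, 1089.6 in lung and 1223 in pancreas (log2 fold change -1.81 ± 0.49, SE, adjusted p = 0.346 in edgeR, 0.0166 in DESeq2). S1pr1, the receptor for exit into lymph, was at 147, 244 and 637 CPM in the gut wall and 439.8, 352, 979.5 and 1892 CPM in the organs, with Peyer's patch above kidney and liver. Ccr7, a receptor for entry into lymph nodes, was at 224, 467 and 810.4 CPM in the gut wall and 572, 608, 1221 and 3204 CPM in the organs. Pancreas was the highest of the organs for both, and lymph node Tconv stood beside it (1356 CPM for S1pr1 and 1921 for Ccr7). In the tissue residency list 2 of 22 lay above, Ahrr and Cdh1, with a median of 0.53. Ahrr was kept by the filter through the gut wall libraries, and the part of epithelial RNA in Cdh1 was not tested. The count therefore supports no direction for residency. Without Peyer's patch 8 of 22 lay above and 0 below, where 11.1% and 10.2% of all genes did. One of the 8 was Prdm1, the repressor Blimp-1, at 290.4, 239.5 and 17.9 CPM in the gut wall and 137, 57.05, 35.6 and 12.7 CPM in the organs. Prdm1 is also on the list of plasma cell markers, whose share was highest in LPL. The part of plasma cell RNA in its level was not tested. Other well known members overlapped: Cd69 was at 452, 838 and 186 CPM in the gut wall and 634, 261, 186 and 648 CPM in the organs. Rgs1, a brake on chemokine receptor signalling, was at 2082, 1371 and 95.9 CPM in the gut wall and 1837, 258, 49.6 and 99.3 CPM in the organs, with kidney among the gut wall libraries and Peyer's patch among the organs.

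The summed level of type 1 helper genes was 1795 CPM in IEL, 2163 in LPL and 310 in Peyer's patch, and 387 to 2498 CPM in the organs. Of 14 tested 0 kept the groups apart. Without Peyer's patch, a choice made after seeing the data, 5 lay above and 0 below, where 11.1% and 10.2% of all genes did. That count is not read as a result about the list. Il12rb2, a chain of the IL-12 receptor, was at 268, 296 and 17.6 CPM in the gut wall and 92.2, 125, 7.33 and 0.432 CPM in the organs. Il12rb1, its partner, was at 209, 268 and 29.1 CPM in the gut wall and 106, 119, 17.99 and 24.6 CPM in the organs. Tbx21, the lineage factor, was at 376, 503 and 16.4 CPM in the gut wall and 820.2, 449, 138 and 46.5 CPM in the organs. Ifng, interferon gamma, was at 62.6, 93.6 and 2.89 CPM in the gut wall and 413, 58.2, 15.2 and 30.1 CPM in the organs. Both had kidney highest and Peyer's patch lowest of the 7. Of 10 type 2 helper genes 1 lay below, with a median of -1.07: Pparg, a lipid-sensing factor of tissue T cells, at 0, 0.976 and 0.133 CPM in the gut wall against 1.12 to 29.96 CPM in the organs, highest in lung. Pparg was at or near 0 in the gut wall and was kept by the filter through the organs. Neither the count nor the median therefore supports a direction. Il1rl1, the IL-33 receptor ST2, was at 4.17, 14.5 and 0.222 CPM in the gut wall and 39.8, 10.98, 74.99 and 33.3 CPM in the organs and overlapped between LPL and liver. Of 15 regulatory T cell genes 1 lay above, the factor Ikzf2, at 56.3, 46.9 and 78.8 CPM in the gut wall against 25.2 to 41.1 CPM in the organs.

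Interferon response genes and ribosomal proteins leaned to lower levels in the gut wall. Of 32 interferon response genes 0 lay above and 6 below, with a median of -0.47: Ifit1, Ifit3, Oas1a, Ifi47, Igtp and Ly6a. Oas1a, an activator of RNase L, was at 8.08, 7.13 and 8.68 CPM in the gut wall against 18.9 to 35.0001 CPM in the organs. Ifit3, which binds viral RNA, was at 1.37, 4.69 and 4.14 CPM in the gut wall against 9.88 to 21.7 CPM in the organs. Irf1, a transcription factor of the same response, overlapped at 356, 658 and 181 CPM in the gut wall against 172 to 324 CPM in the organs. Of 30 cytosolic ribosomal protein genes 21 lay below and 0 above, and 27 had an unadjusted p below 0.05, with a median log2 fold change of -0.72. Rpl34 was at 36.5, 46.7 and 42.1 CPM in the gut wall and 81.3, 119, 208 and 132 CPM in the organs. Ribosomal protein genes are known to be regulated together, so the members are not independent of each other. Across the 14127 genes, the log2 fold change rose weakly with exonic gene length (Spearman rho 0.134, across genes, which are not replicates), and ribosomal protein transcripts are short; the part of length in the ribosomal levels was not tested. Of 30 oxidative phosphorylation genes 2 lay below and 0 above, with a median of -0.18. Of 16 heat shock genes 0 kept the groups apart, with a median of -0.81. Their summed level was 29144 CPM in kidney against 2844 to 6714 CPM in the other 6. Of 28 AP-1 and early response genes 0 kept the groups apart, with a median of 0.015. Their summed level was 34732 CPM in kidney, 31857 in LPL, 17250.1 in pancreas and 14243 in IEL, and below these in the other 3. Of 28 cell cycle genes 0 kept the groups apart. Genes of glucose and lipid use (2 of 27 above, 2 below) and of T cell receptor signalling (2 of 30 above, 1 below) had shares near those of all genes.

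**Figure D4:**
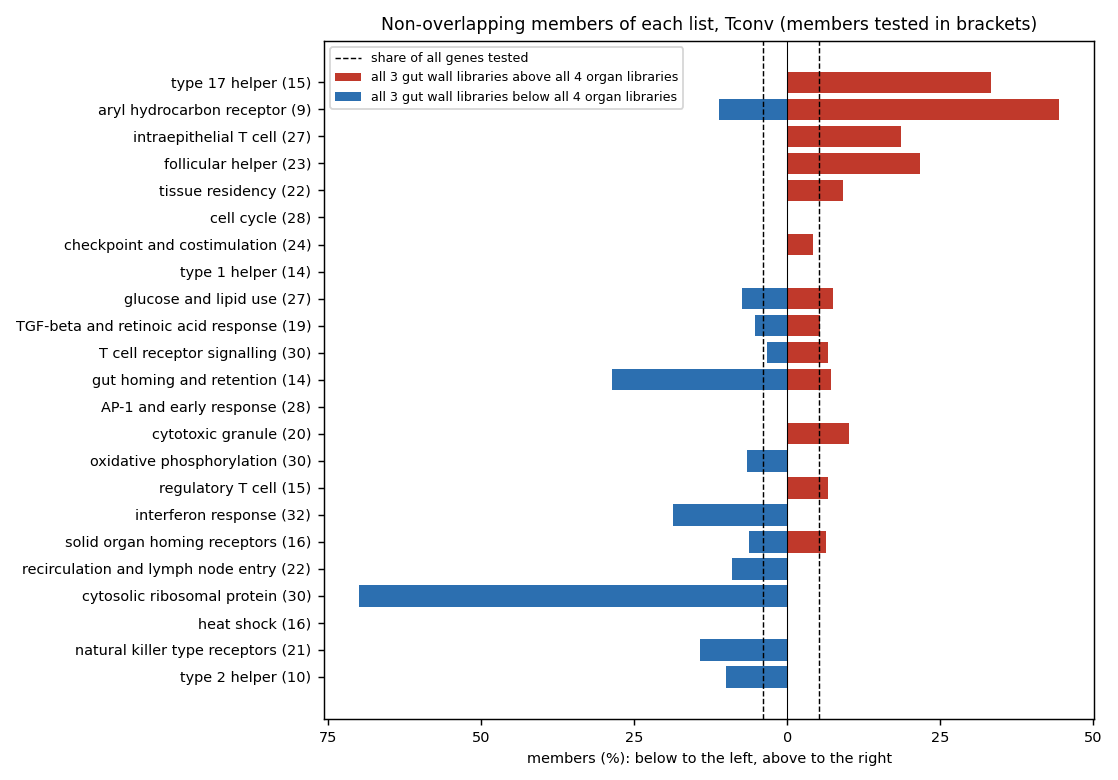
Share of the tested members of 23 gene lists (percent; number tested in brackets) whose 3 gut wall levels all lay above (red, right) or all below (blue, left) the 4 organ levels in Tconv, ordered by the list's median log2 fold change. Dashed lines mark the shares over all genes tested, 5.22% above and 4.05% below; ribosomal proteins had the longest bar below (21 of 30), followed by gut homing genes (4 of 14).

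Treg of the same sources, with the counts of their 3 libraries summed, gave 3 of 17483 genes higher in the gut wall (0.0172%) and 2 lower (0.0114%) at an adjusted p below 0.05 in edgeR; at an unadjusted p below 0.05 there were 2115 (12.1%), 5.83% higher and 6.26% lower. The 3 higher were Ctse, Ccr9 and Acta1, and the 2 lower were Itgb1 and Anxa1. Itgb1 in Treg was at 109 ± 3.97, 101 ± 14.7 and 166 ± 13.2 CPM in the gut wall and 1202 ± 325, 2074 ± 242, 2012 ± 851 and 1519.7 ± 811 CPM in the organs (mean ± SD, n = 3). Its log2 fold change was -3.81 ± 0.30 (SE, adjusted p = 0.0101 in edgeR), beside the -3.67 of Tconv. Ctse was at 191 ± 31.1, 162 ± 21.8 and 265 ± 217 CPM in the gut wall and 25.04 ± 4.36, 19.2 ± 4.32, 21.8 ± 7.57 and 25.3 ± 9.77 CPM in the organs (3.22 ± 0.23, SE, adjusted p = 0.0101 in edgeR), beside 3.33 in Tconv. Anxa1 was at 0.887 ± 0.551, 1.13 ± 0.564 and 0.538 ± 0.482 CPM in the gut wall and 39.7 ± 25.98, 29.1 ± 5.66, 57.1 ± 44.7 and 28.9 ± 28.9 CPM in the organs (-5.62 ± 0.45, SE, adjusted p = 0.0101 in edgeR), beside -4.85 in Tconv. Ccr9 was at 1693 ± 74.8, 990.3 ± 182 and 243 ± 44.3 CPM in the gut wall and 18.6 ± 15.4, 13.01 ± 4.22, 16.98 ± 9.84 and 19.5 ± 10.7 CPM in the organs (5.91 ± 0.63, SE, adjusted p = 0.0484 in edgeR): unlike in Tconv, Treg of Peyer's patch stood well above all organs. Acta1, skeletal muscle actin, was at 4.59 to 7.87 CPM in the gut wall and 0.118 to 0.263 CPM in the organs and was not tested in Tconv. These calls depended on the sources included. Each of the 5 was lost without IEL (adjusted p = 0.149 for Itgb1 in edgeR) and without pancreas (0.0508). The fold changes moved less: over all alternatives run, the log2 fold change ran from -4.04 to -3.69 for Itgb1, 2.76 to 3.38 for Ctse, -5.92 to -4.98 for Anxa1, 5.25 to 6.38 for Ccr9 and 4.68 to 5.05 for Acta1. Itgb1 and Anxa1 were also lost without LPL, Anxa1 without kidney, and Ccr9 and Acta1 without any 1 source other than Peyer's patch; without Peyer's patch all 5 held and 105 genes passed.

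Next in Treg, and not past the threshold, were Gzma (adjusted p = 0.0691), Fam83g (0.0839), S100a4 (0.0600), Klrk1 (0.114) and B4galt5 (0.114). Gzma in Treg was at 126 to 1108 CPM in the gut wall and 3.88 to 11.1 CPM in the organs. Itgae in Treg was at 1485 ± 125, 810.4 ± 149 and 479 ± 17.3 CPM in the gut wall and 293 ± 79.4, 312 ± 58.6, 204 ± 54.3 and 273 ± 30.6 CPM in the organs. Its groups did not overlap either, but organ Treg had Itgae at levels that organ Tconv did not reach (3.07 to 31.8 CPM), and the log2 fold change was 1.80 ± 0.37 (SE, adjusted p = 0.164 in edgeR) against 4.57 in Tconv. Of the 738 genes whose gut wall levels lay above all organs in Tconv, 713 were tested in Treg and 193 of them (27.1%) also lay above there; they were 16.6% of the 1166 such genes in Treg, which were 6.67% of those tested. Of the 572 below, 567 were tested and 200 (35.3%) also lay below; they were 17.9% of the 1119 in Treg (6.4% of those tested). By list, Treg had 14 of 30 ribosomal proteins below (median -0.89), 5 of 13 type 17 helper genes above and 1 below (median 1.14), 9 of 27 intraepithelial genes above and 1 below, and 1 of 23 follicular helper genes above (median 0.40). Oxidative phosphorylation had 18 of 30 below (median -0.40), beside 2 of 30 in Tconv. T cell receptor signalling had 8 of 30 above, and natural killer type receptors 3 above and 5 below of 15. No difference between Tconv and Treg was tested for these counts.

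The difference between the gut effects of Tconv and Treg was tested directly in 18095 genes, and 0 passed in edgeR in either direction (0%), with 812 (4.49%) at an unadjusted p below 0.05, 3.13% higher and 1.35% lower. The 5 with the smallest p in each direction, none of which passed, are described by their levels. Klrg1 had the smallest p. In Treg it was at 69.4 ± 26.99, 379.6 ± 115 and 36.2 ± 27.7 CPM in the gut wall and 266 ± 178, 138 ± 15.4, 355 ± 143 and 168 ± 92.1 CPM in the organs, with LPL highest, so the groups overlapped there. The gut effect in Tconv minus that in Treg was -3.30 ± 0.47 (SE) on the log2 scale, with an adjusted p of 0.719 in edgeR. Tigit was high throughout Treg, at 138 to 301 CPM in the gut wall and 86.2 to 231 CPM in the organs, and the difference was 2.09 ± 0.37 (SE, adjusted p = 0.719 in edgeR). Adgrg1, an adhesion receptor of cytotoxic cells, was at 11.9, 6.35 and 5.07 CPM in the gut wall against 0 to 2.52 CPM in the organs in Tconv. It was at 1.34 to 3.35 CPM in the gut wall and 1.15 to 32.5 CPM in the organs in Treg. Ctla2a, an inhibitor of cathepsin-like proteases, was at 1.11, 2.39 and 0.934 CPM in the gut wall against 6.38 to 213 CPM in the organs in Tconv. It was at 10.998 to 14.8 CPM in the gut wall and 13.4 to 64.8 CPM in the organs in Treg. The others were Csf2rb2, Tnfsf8 and Lmna, with a higher gut effect in Tconv, and Ccr8, Lyst and Abcg3, with a lower one. Adjusted p in edgeR ran from 0.719 to 0.979 over these 10 genes. Of the 3 markers, the difference was 0.23 ± 0.51 (SE) for Itgb1, 2.83 ± 0.91 for Itgae and -2.39 ± 0.56 for Ccr9, with an adjusted p of 1 for each in edgeR.

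**Figure D5:**
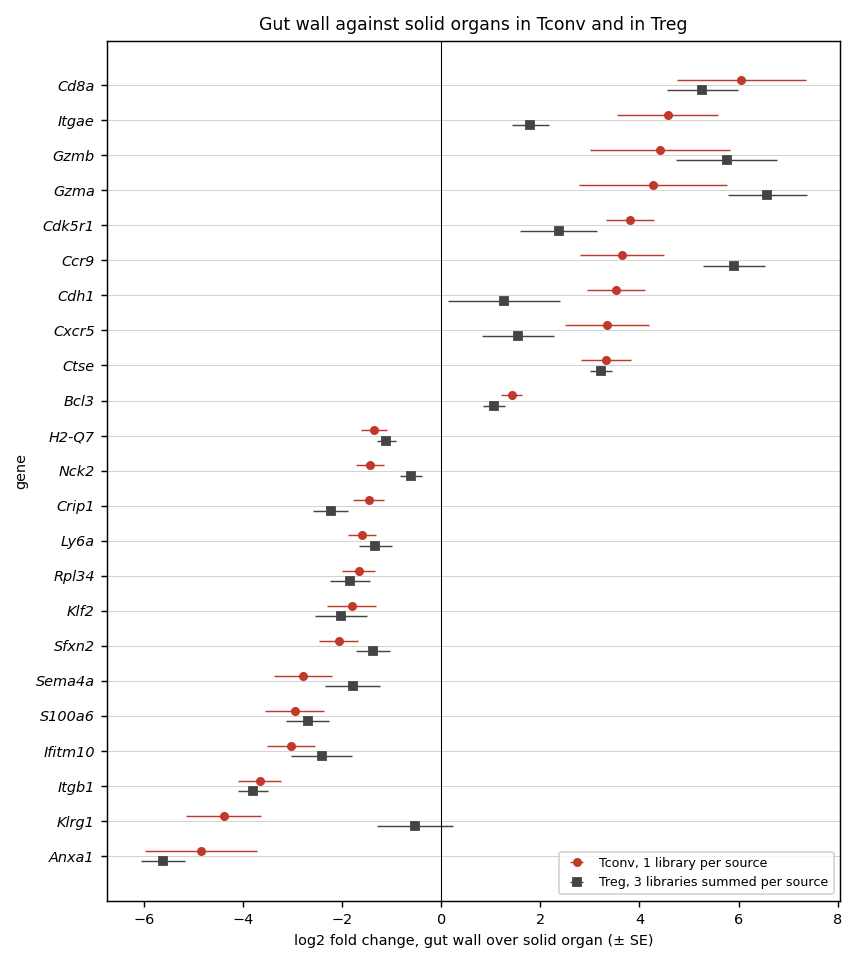
Log2 fold change of gut wall over solid organ with its standard error, in Tconv (red circles, 1 library per source) and in Treg (dark squares, 3 libraries summed per source), for named genes with a mean of at least 1 CPM in both Tconv groups. Itgb1 was at -3.67 in Tconv and -3.81 in Treg, and Klrg1 was at -4.39 in Tconv and -0.53 in Treg.

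The genes most like each marker were found by Pearson's r of log2(CPM + 1) over the 10 Tconv libraries, which share scaling and depth; the values are a description. For Ccr9 they included B3galt5 (a galactosyltransferase, r = 0.975) and Apol7b (0.962). B3galt5 was at 65.02, 140.4 and 6.05 CPM in the gut wall against 3.02 to 10.9 CPM in the organs, with the same step between LPL and Peyer's patch as Ccr9. For Itgae they were B4galnt4 (0.961) and St6galnac2 (0.960), both enzymes that build glycans, and Gstm5 (a glutathione transferase, 0.958). B4galnt4 was at 129, 126 and 71.1 CPM in the gut wall against 4.94 to 29.3 CPM in the organs and kept the groups apart. For Itgb1 they were Dennd1b (0.927), a regulator of vesicle traffic, Ccnd3 (0.920), cyclin D3, and S100a6 (0.917). Ccnd3 was at 252, 217 and 239 CPM in the gut wall against 356 to 598 CPM in the organs, with pancreas the lowest of the organs as for Itgb1.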

How the data were processed

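The deposited table held raw counts per gene for 40 libraries, not normalized by the authors; the counts were whole numbers for 55421 genes. Per the submitters' processing notes, FastQC, MultiQC, Trim Galore, STAR, featureCounts, DESeq and DESeq2 were used with build mm10, without versions. The annotation release and the use of strand in counting are not given in the sources used here, so reads of overlapping antisense genes cannot be told apart, and multi-mapped reads of near-identical copies may be split. Libraries were grouped by labelled source and cell type.

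The members and gene lists were chosen with earlier results of these data known. Genes were kept with filterByExpr, scaled by TMM and tested with edgeR 4.0.16 (quasi-likelihood F test, robust, R 4.3.3) with Benjamini-Hochberg adjustment over all genes and a threshold of 0.05. Tconv were tested with 1 library per source (3 against 4, 5 residual degrees of freedom), Treg with the 3 libraries of a source summed, and the difference between both in 1 fit of the 14 profiles with a term per source. No label says that libraries came from separate animals, so p values measure the spread between sources, which may be partly technical. Named genes were the 3 markers, the 12 with the smallest p in each direction in Tconv and the 5 in each direction in Treg and in the difference. They had to differ by 1 or more on the log2 scale, and predicted genes, immunoglobulin or receptor segments and other cells' markers were left out; list members could be named beside their list's counts. Some genes that this rule allows are not reported here. DESeq2 1.42.0 and limma 3.58.1 served as alternatives, with another scaling, no filter on low counts, all 10 Tconv libraries in the fit, other cells' markers removed, single libraries left out and, for Treg, fits of the 21 libraries. The edgeR step was tested on simulated data. The 21 Treg libraries had 17545858 to 28823493 counts. Precision is limited by there being 1 Tconv library per source, and whether reads were collapsed by molecular identifiers is not given in the sources used here. Promoters came from RefSeq (GRCm38.p6). Same-numbered Treg libraries of different sources did not deviate together.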

Additional observations from a re-analysis of the deposited data

Results flagged for a closer look

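In 9 of 63 named genes, 1 of the 4 organ Tconv libraries stood apart from the other 3 by Dixon's criterion. Chance meets it in about 1 of 20 groups of normally distributed values, a rate that does not hold for counts at or near 0. In 6 of them, genes of intestinal epithelium, the library that stood apart was the 1 organ with any count: Aoc1 at 0.0480 CPM in pancreas, Cdh17 and Nlrp6 at 0.0747 CPM each in liver, Defa24 and Itln1 at 0.0503 CPM each in kidney, and Myo1a at 0.0520 CPM in lung. Each of these values is 1 read, and with 0 in the other 3 organs the criterion is met whatever the level. The 9 of 63 can therefore not be set against the rate of 1 in 20. Ahrr was at 2.45 CPM in pancreas and at most 0.0503 CPM in the other organs, which brought pancreas near Peyer's patch. Epcam was at 2.17 CPM in liver against 5.36 to 5.996 CPM in the other 3. Klra9 was at 0.0959 CPM in pancreas against 2.31 to 2.97 CPM in the other 3.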

How the results depend on the processing

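In Tconv, edgeR called 0 genes with TMM and also with median-ratio scaling (972 at an unadjusted p below 0.05), with all 10 Tconv libraries in the fit (1014) and with markers of other cells removed (939); limma-voom called 0 as well (1488). Without a filter on low counts 42 genes were called, DESeq2 called 440, and leaving out 1 library at a time gave 0 to 16, the 16 without LPL. In Treg the 5 calls became 11 without the filter and 929 with DESeq2, and 0 to 105 with 1 source left out. With the 21 Treg libraries as replicates, a mean per source gave 3079 calls, because the spread is then that between libraries of a source; by region alone 1662 were called, and with a replicate block 158. The block rests on numbers that do not pair the samples: over 18 same-numbered pairs the correlation of deviations ran from -0.109 to 0.194 (median -0.011). No paired analysis was possible because the Tconv groups compared share fewer than 2 replicate numbers. For the difference between Tconv and Treg, DESeq2 called 148, a fit of 28 libraries 32, and leaving out 1 source 0 to 1. The difference for Itgb1 ran from -0.048 to 0.66 with 1 source left out, below 0 without IEL and without pancreas, and never passed. No log2 fold change of a named gene in Tconv changed sign under any alternative run.

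Without Peyer's patch the number of list members that kept the groups apart, in either direction, moved by more than 1.5 times for 20 of the 23 lists, and without IEL for 3. Over all genes the shares above and below went from 5.22% and 4.05% to 11.1% and 10.2% without Peyer's patch. Without IEL they went to 7.03% and 5.29%. The moves of the list counts are therefore not read as results about the lists. The cause of the larger counts with DESeq2 and without the filter was not tested. Depth limits the genes given at levels well below 1 CPM, which rest on few reads.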
